A study of Mus musculus with 6 samples.

Results

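The genes described here are 10 genes of insulin signalling and of the FOXO transcription factors in liver. They include the receptor genes Insr and Gcgr, the adaptor genes Irs1 and Irs2, the regulatory subunit gene Pik3r1 and the kinase gene Akt2. The rest are the transcription factor genes Foxo1 and Foxo3, the coactivator gene Ppargc1a and the secreted target gene Igfbp1. All 10 were chosen by symbol from a table of 15092 genes. Each was found and passed the filter on low counts, among 13816 tested genes in all. Liver messenger RNA was sequenced from C57BL/6J mice in 3 libraries labelled CRY1 KO, for a knockout of the circadian repressor gene Cry1, and 3 libraries labelled WT. All 6 titles carry the prefix NC, which is not explained. No time of day, feeding state, sex, age, knockout allele or pooling is given, nor whether the replicates were separate animals, so p-values measure the spread between these libraries.

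Insulin binds the receptor kinase encoded by Insr, which phosphorylates the IRS adaptors. These recruit phosphatidylinositol 3-kinase, and the lipid it makes activates AKT. AKT phosphorylates FOXO1 and FOXO3, which then leave the nucleus. In the fasted liver, with little insulin and much glucagon, nuclear FOXO1 and the cAMP pathway under the glucagon receptor raise genes such as Igfbp1, Irs2, Ppargc1a, Pck1 and G6pc, and after a meal insulin lowers them and raises Srebf1. Transcript levels do not show how much of these proteins is phosphorylated or nuclear.

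Library totals lay between 79708703 and 91316332 estimated counts. Cry1 itself stood at 6.95, 6.41 and 5.22 CPM (counts scaled to library size) in the libraries labelled CRY1 KO and at 4.80, 6.89 and 7.24 CPM in WT (log2 difference -0.03, SE 0.19, edgeR adjusted p = 0.954), so this value, which covers the whole gene, is no check of the labels. WT 1 stood apart from the other libraries, for example at 777 CPM of the cholesterol synthesis gene Hmgcs1, against 121 to 195 CPM elsewhere, so results that rest on it are also given without it. Summed markers of hepatocytes took 93183 to 100177 CPM in CRY1 KO and 92260 to 96232 CPM in WT, and markers of other liver cells were present too, so the libraries held more than hepatocytes.

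Among the 10 genes Foxo1 was higher in CRY1 KO and passed the test over all genes, while the other 9 did not pass. Foxo1 stood at 58.5 ± 2.53 CPM in CRY1 KO and 29.7 ± 7.27 CPM in WT (SD, n = 3 each). Foxo3, Irs2 and Insr were also higher in each CRY1 KO library than in each WT library, and Gcgr was lower in each. Igfbp1, the classic insulin-repressed gene, overlapped widely, with a single WT library above all others. The call rate for the 10 genes, 1 higher and 0 lower, compares with 1.06% of all tested genes called higher and 0.644% called lower by edgeR's quasi-likelihood test at an adjusted p under 0.05 (1.70% in all). Groups did not overlap in 4 of the 10 genes with CRY1 KO higher and in 1 with CRY1 KO lower, against 14.6% and 12.7% of all tested genes (27.3% in all). The median log2 difference of the 10 genes was 0.27, and 0.51 without WT 1, against -0.02 over all tested genes.

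**Figure D1:**
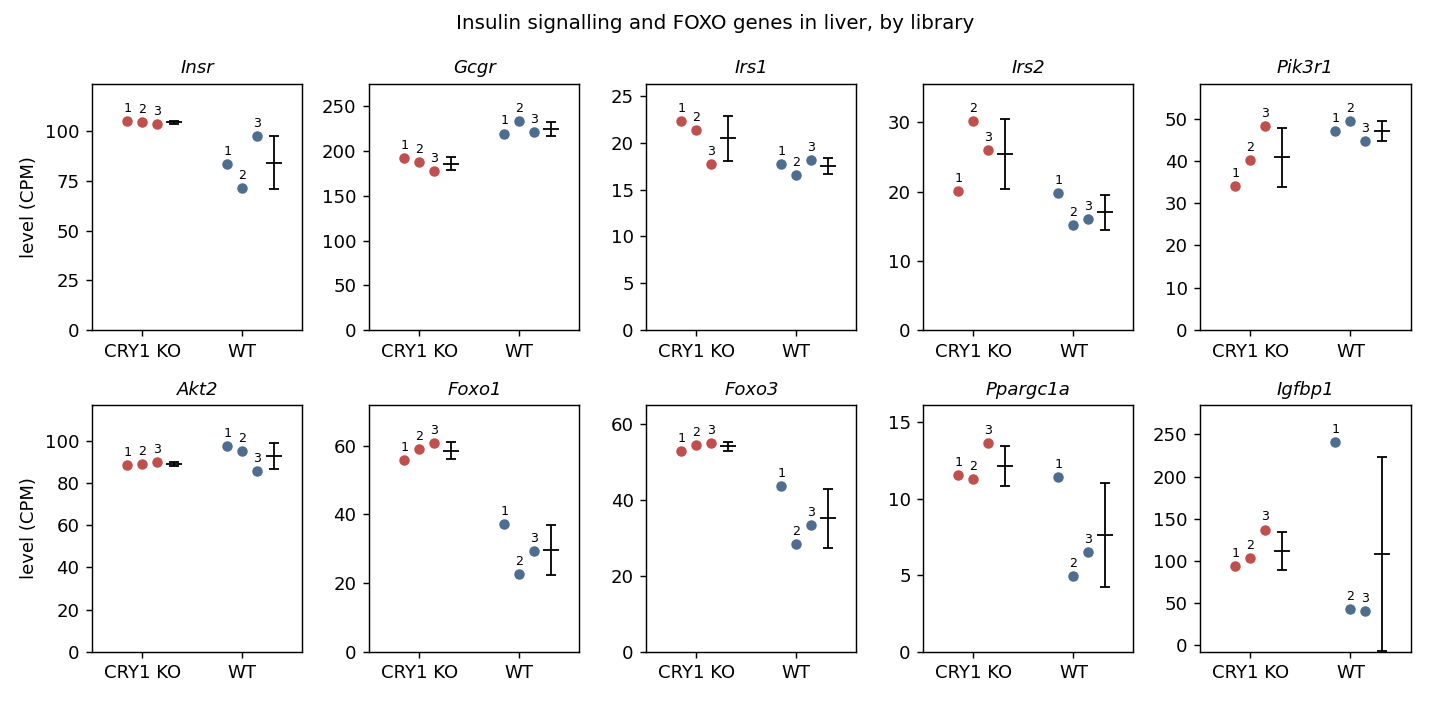
Level in CPM of each of the 10 genes in the 3 CRY1 KO libraries and the 3 WT libraries, with replicate numbers above the points and the mean and SD as black marks. Foxo1 and Foxo3 lie above WT in every CRY1 KO library, and Igfbp1 ranges from 39.8 to 241 CPM within WT.

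Insr encodes the insulin receptor. Its level was 105, 105 and 104 CPM in CRY1 KO 1, 2 and 3, against 83.7, 71.2 and 97.5 CPM in WT 1, 2 and 3. The CRY1 KO libraries were nearly identical and all lay above the 3 WT libraries, which were spread. The fitted log2 difference, CRY1 KO minus WT, was 0.31 (SE 0.12, 95% interval 0.05 to 0.58, edgeR adjusted p = 0.185). It passed without WT 3, at 0.43 (adjusted p = 0.0424), where the adjusted p over all alternatives ran from 0.0424 to 0.436.

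Gcgr encodes the glucagon receptor, which raises cAMP in hepatocytes and opposes insulin. Its level was 192, 188 and 178 CPM in CRY1 KO, against 219.7, 234 and 221 CPM in WT. Each CRY1 KO library lay below each WT library, and neither group was spread widely. That was a log2 difference of -0.27, CRY1 KO minus WT (SE 0.08, 95% interval -0.46 to -0.09, edgeR adjusted p = 0.119), and the exact two-sided permutation p was 0.1, the smallest that 3 against 3 libraries allow. DESeq2 called it (adjusted p = 0.0296, range over the alternatives 0.0296 to 0.349).

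Irs1 and Irs2 encode the adaptors that link the receptor to phosphatidylinositol 3-kinase, and in liver Irs2 is the one that fasting raises and insulin lowers. Irs2 stood at 20.0, 30.2 and 26.0 CPM in CRY1 KO, against 19.8, 15.1 and 16.0 CPM in WT. The groups did not overlap, but CRY1 KO 1 lay close to WT 1. Irs2 differed by 0.58 on the log2 scale (SE 0.17, 95% interval 0.20 to 0.96, edgeR adjusted p = 0.106). DESeq2 called Irs2 (adjusted p = 0.0241), and over the alternatives the adjusted p ran from 0.0241 to 0.311. Irs1 stood at 22.3, 21.4 and 17.7 CPM in CRY1 KO, against 17.8, 16.6 and 18.2 CPM in WT. The groups overlapped, with CRY1 KO 3 inside the WT range. The log2 difference of Irs1 was 0.22 (SE 0.11, 95% interval -0.03 to 0.48, edgeR adjusted p = 0.292).

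The promoters of both adaptor genes are shown because, of the genes with a promoter window, they alone held an E-box, the element that the clock proteins CLOCK and BMAL1 bind. The windows run from 250 bases before to 50 bases after the annotated start, on the gene's strand, from RefSeq on GRCm38.p6, at chr1:82291390-82291689 (minus strand) for Irs1 and chr8:11008880-11009179 (minus strand) for Irs2. Capitals mark any match on either strand to the E-box CACGTG, to CAAAACA, the core of the insulin response sequence through which FOXO proteins act, or to TGACG, the core of a cAMP response element.
Irs1: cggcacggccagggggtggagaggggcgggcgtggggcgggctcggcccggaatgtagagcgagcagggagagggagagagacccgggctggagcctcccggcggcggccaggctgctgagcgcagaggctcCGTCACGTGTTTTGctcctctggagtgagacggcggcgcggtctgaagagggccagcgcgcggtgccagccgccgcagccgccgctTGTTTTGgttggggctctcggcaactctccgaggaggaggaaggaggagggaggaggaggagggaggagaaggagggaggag
Irs2: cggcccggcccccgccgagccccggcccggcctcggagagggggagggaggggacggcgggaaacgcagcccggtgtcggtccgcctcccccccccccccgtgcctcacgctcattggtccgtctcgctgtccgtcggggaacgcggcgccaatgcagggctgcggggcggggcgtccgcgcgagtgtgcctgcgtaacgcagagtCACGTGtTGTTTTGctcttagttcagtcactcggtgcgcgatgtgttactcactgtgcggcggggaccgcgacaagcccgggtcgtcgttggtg
In Irs2 the E-box began at -44 and the reverse complement of the insulin response core at -37, with a single base between them. In Irs1 a reversed cAMP core at -118, an E-box at -115 and a reversed insulin response core at -111 each overlapped the next, and a further reversed core began at -32. Windows were matched for 9 of the 10 genes, all but Insr, and the 9 had 13 windows. Of these 13 windows 2 held the E-box, 3 the insulin response core and 6 the cAMP core. Of all 32851 mouse windows of this length, 7.15% held the E-box, 6.28% the insulin response core and 20.81% the cAMP core. The FOXO motif GTAAACA was in 0 of the 13 windows, against 3.65% of all windows, which says only that these letters are not there. A match is a stretch of letters and not a site shown to be bound in these livers.

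Pik3r1 and Akt2 encode the next steps, the p85α regulatory subunit of phosphatidylinositol 3-kinase and the main AKT kinase of insulin action in liver. Pik3r1 stood at 34.2, 40.3 and 48.2 CPM in CRY1 KO, against 47.0, 49.4 and 44.8 CPM in WT. CRY1 KO 1 and 2 lay below all WT libraries and CRY1 KO 3 among them. Its log2 difference was -0.20 (SE 0.13, 95% interval -0.49 to 0.08, edgeR adjusted p = 0.39). Akt2 stood at 88.5, 88.9 and 90.2 CPM in CRY1 KO, against 97.7, 95.1 and 85.9 CPM in WT. The CRY1 KO libraries were close together and inside the WT range. The log2 difference of Akt2 was -0.06 (SE 0.08, edgeR adjusted p = 0.726), with a 95% interval of -0.25 to 0.13.

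Foxo1 encodes the forkhead factor that drives gluconeogenic genes when insulin is low. Its level was 55.8, 59.0 and 60.8 CPM in CRY1 KO, against 37.2, 22.6 and 29.2 CPM in WT. All CRY1 KO libraries lay above all WT libraries, with nothing between 37.2 and 55.8 CPM. The log2 difference was 0.98 (SE 0.17, 95% interval 0.60 to 1.36, edgeR adjusted p = 0.0349), a 1.97-fold higher level. The call was lost without CRY1 KO 1 (adjusted p = 0.0983), CRY1 KO 2 (0.146), CRY1 KO 3 (0.152) or WT 2 (0.0863), and held without WT 1 (0.0031) or WT 3 (0.0476). Over these fits the log2 difference stayed between 0.82 and 1.17, and fits with a library left out have fewer libraries. DESeq2 gave an adjusted p of 6.32e-06, and the range over all alternatives was 6.32e-06 to 0.152.

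Foxo3 encodes a second forkhead factor under AKT, which shares many target genes with FOXO1. It stood at 52.8, 54.5 and 55.0 CPM in CRY1 KO, against 43.7, 28.3 and 33.4 CPM in WT. The order of the WT libraries was that of Foxo1, with WT 1 highest and WT 2 lowest, and the groups did not overlap. For Foxo3 the log2 difference was 0.62 (SE 0.15, 95% interval 0.29 to 0.96, edgeR adjusted p = 0.0719). Foxo3 passed without WT 1, at 0.81 (adjusted p = 0.00606), and by DESeq2 (adjusted p = 0.00502), over a range of 0.00502 to 0.225. Foxo4, a related forkhead factor gene from the pathway list, stood at 22.7, 24.8 and 25.0 CPM in CRY1 KO and 18.8, 19.8 and 21.0 CPM in WT (log2 difference 0.28, SE 0.09, edgeR adjusted p = 0.141).

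The genes whose profile over the 6 libraries lay nearest to that of Foxo1 were Ell2, which encodes a transcription elongation factor, Mast3, which encodes a protein kinase, and Zc3h8, which encodes a zinc finger protein. Their root mean square distances from Foxo1 in log2 CPM, each gene taken from its own mean, were 0.06, 0.068 and 0.094. Ell2 stood at 101, 106 and 109 CPM in CRY1 KO, against 67.1, 41.7 and 47.5 CPM in WT. It shared with Foxo1 the narrow spread in CRY1 KO and the high value in WT 1, which follows from its choice by profile.

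Ppargc1a encodes PGC-1α, a coactivator that glucagon and fasting raise in liver and that works with FOXO1 and HNF4α on gluconeogenic genes. It stood at 11.5, 11.3 and 13.7 CPM in CRY1 KO, against 11.5, 4.94 and 6.50 CPM in WT. WT 1 lay among the CRY1 KO libraries, and WT 2 and WT 3 lay below them. With all libraries the log2 difference was 0.67 (SE 0.29, 95% interval -0.02 to 1.36, edgeR adjusted p = 0.253). Without WT 1 it was 1.09 (adjusted p = 0.0124), and over the alternatives the adjusted p ran from 0.0124 to 0.494.

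Igfbp1 encodes a secreted protein of hepatocytes that binds insulin-like growth factors, and its transcription is repressed by insulin within hours and raised by FOXO1, glucagon and glucocorticoids. It stood at 93.5, 103 and 137 CPM in CRY1 KO, against 241, 42.7 and 39.8 CPM in WT. WT 1 exceeded every other library, and WT 2 and WT 3 lay below every CRY1 KO library. The log2 difference was 0.04 (SE 0.81, 95% interval -2.05 to 2.14, edgeR adjusted p = 0.986), an interval too wide to limit the change. Without WT 1 it was 1.43 (adjusted p = 0.00406). Without CRY1 KO 3, WT 2 or WT 3 its sign turned, at -0.13, -0.34 and -0.35 (adjusted p between 0.832 and 0.969), where over all alternatives the adjusted p ran from 0.00406 to 0.987.

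The Igfbp1 promoter is shown because it holds the insulin response sequence for which the gene is known. The window is chr11:7197537-7197836 (plus strand, GRCm38.p6, RefSeq), and capitals mark its match to CAAAACA.
Igfbp1: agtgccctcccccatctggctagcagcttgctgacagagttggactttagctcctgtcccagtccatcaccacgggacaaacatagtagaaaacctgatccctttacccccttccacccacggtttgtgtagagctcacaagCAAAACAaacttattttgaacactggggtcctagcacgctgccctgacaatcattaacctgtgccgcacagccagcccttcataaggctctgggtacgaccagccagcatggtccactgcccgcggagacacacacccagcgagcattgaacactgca
The match began at -108 on the gene's own strand. Such a core was held by 3 of the 9 genes with a window, Igfbp1, Irs1 and Irs2, in 3 of the 13 windows. Their levels in WT 1 differed, at 5.85 times the mean of WT 2 and WT 3 for Igfbp1, 1.27 times for Irs2 and 1.02 times for Irs1. The Foxo1 window held 0 matches to any of the 4 motifs.

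WT 1 differed from the other WT libraries in some of the 10 genes and not in others. Its level relative to the mean of WT 2 and WT 3 was 2.004 times for Ppargc1a, 1.43 times for Foxo1 and 1.42 times for Foxo3, besides the values above for Igfbp1 and Irs2. For Insr, Gcgr, Irs1, Pik3r1 and Akt2 it lay between 0.967 and 1.08 times. Among the 10 genes WT 1 thus stood above the other WT libraries in Foxo1, Foxo3, Igfbp1, Ppargc1a and Irs2. It stood beside them in Insr, Gcgr, Irs1, Pik3r1 and Akt2. On a list of genes raised by fasting, the median log2 deviation from the 6-library mean was -0.08 in WT 1, against -0.33 and -0.19 in WT 2 and WT 3. For a list of genes raised by feeding it was 0.22, against -0.31 and -0.34. In 6 of the 10 genes WT 1 was the highest of the WT libraries, and in 6 of the 10 WT 2 was the lowest of all libraries.

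**Figure D2:**
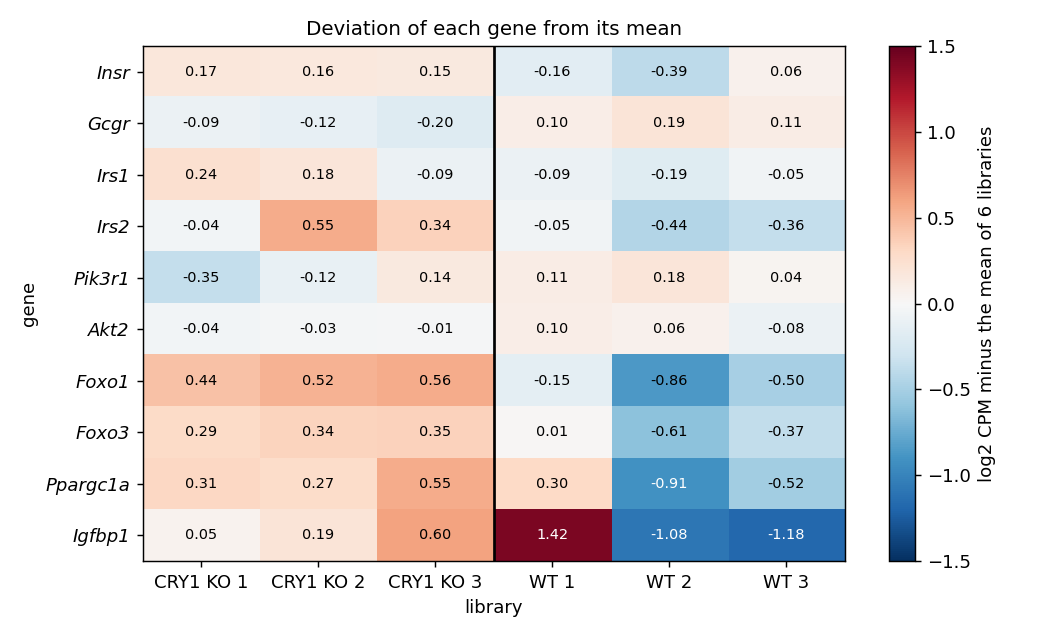
Each cell gives the log2 CPM of a gene in a library minus the mean of that gene over the 6 libraries, with CRY1 KO left of the black line and WT right of it. WT 1 is at 1.42 for Igfbp1 and 0.30 for Ppargc1a, where WT 2 and WT 3 are at -1.08 and -1.18 and at -0.91 and -0.52.

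**Figure D3:**
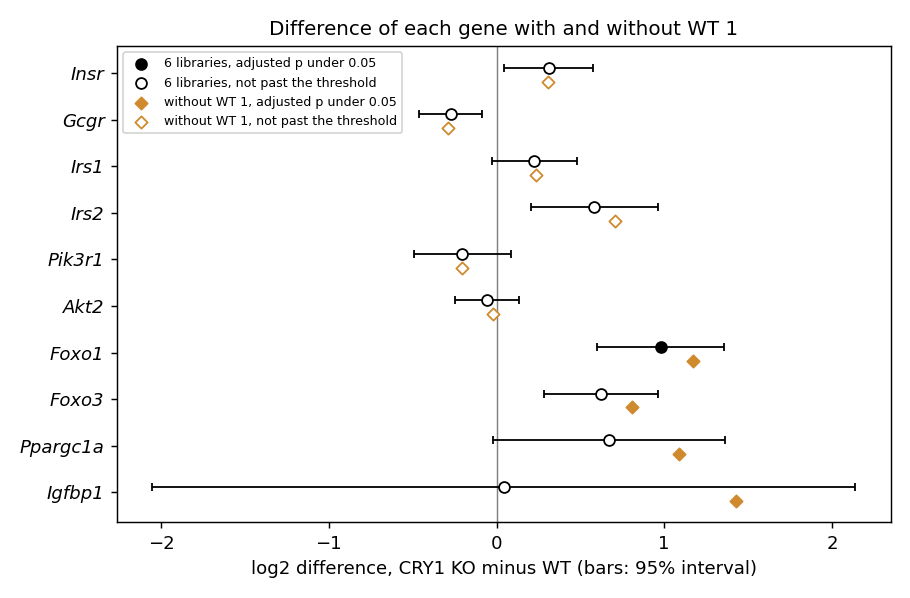
Log2 difference of each gene, CRY1 KO minus WT, from edgeR with all 6 libraries (circles, with the 95% interval) and without WT 1 (diamonds), where filled symbols passed an adjusted p of 0.05. Foxo1 passed in both, and Foxo3, Ppargc1a and Igfbp1 passed without WT 1 only.

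Without WT 1, 4 of the 10 genes were called, each higher in CRY1 KO, against 2.57% of all tested genes called higher in that fit (4.04% in all). DESeq2 with all libraries called Foxo1, Foxo3, Irs2 and Gcgr, against 10.8% of the genes to which it gave an adjusted p. Without WT 3 the called members were Foxo1 and Insr, against 6.04% of all tested genes. Without CRY1 KO 1, CRY1 KO 2, CRY1 KO 3 or WT 2, 0 of the 10 were called, in fits that called 0.285%, 0.143%, 0.214% and 0.121% of all tested genes in that order.

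Of the other genes of the insulin pathway, 45 were tested from a list of 46 kinases, phosphatases, adaptors and inhibitors. By edgeR 0 of the 45 passed over all genes, against 1.70% of all tested genes. At an unadjusted p under 0.05, 6 were higher and 6 lower, where 20.7% of all tested genes had such a p. DESeq2 called 4, against 10.8% of all genes it judged. The median log2 difference was -0.01, and 0.12 without WT 3. Pdpk1, which encodes the kinase that phosphorylates AKT, stood at 26.0, 25.9 and 24.0 CPM in CRY1 KO and 19.0, 19.2 and 19.9 CPM in WT (log2 difference 0.39, SE 0.09, edgeR adjusted p = 0.0641). Socs3, a cytokine-induced inhibitor that also binds the insulin receptor, stood at 3.26, 3.86 and 5.08 CPM in CRY1 KO and 5.80, 10.8 and 8.23 CPM in WT (log2 difference -1.02, SE 0.25, edgeR adjusted p = 0.0795). Sh2b2, which encodes an adaptor of the insulin receptor, differed by -0.94 on the log2 scale (SE 0.22, edgeR adjusted p = 0.0678). Without WT 1 the genes called were Socs3, Sh2b2 and Foxa2, each lower, against 1.47% of all tested genes called lower in that fit. Foxa2, a fasting-active forkhead factor named after its values were seen, stood at 18.7, 20.3 and 15.6 CPM in CRY1 KO, against 19.0, 41.0 and 36.2 CPM in WT, with WT 1 inside the CRY1 KO range.

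Downstream of the glucagon receptor, 0 of 27 genes of cAMP signalling passed edgeR over all genes, with 4 higher and 2 lower at an unadjusted p under 0.05 and 3 called by DESeq2. These shares are near those of all tested genes, 1.70% by edgeR, 20.7% at an unadjusted p under 0.05 and 10.8% by DESeq2. The median log2 difference was 0.10, and between 0.02 and 0.19 with a WT library left out. Crtc3, a coactivator of the cAMP-responsive factor CREB, stood at 10.8, 12.3 and 11.6 CPM in CRY1 KO and 14.7, 15.8 and 18.2 CPM in WT (log2 difference -0.49, SE 0.12, edgeR adjusted p = 0.0701). Sik3, a kinase that restrains CRTC coactivators and is itself inhibited by cAMP signalling, stood at 59.7, 64.6 and 63.6 CPM in CRY1 KO and 53.4, 35.0 and 42.9 CPM in WT (log2 difference 0.52, SE 0.14, edgeR adjusted p = 0.0995). Pde4b, a phosphodiesterase that degrades cAMP, differed by -1.41 on the log2 scale (SE 0.44, edgeR adjusted p = 0.159), and Crebbp, a coactivator of CREB, one of 0.34 (SE 0.12, edgeR adjusted p = 0.161). In all 4, chosen by small p, the groups did not overlap, as in 27.3% of all tested genes.

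Whether the pattern looks fed or fasted was examined with a list of genes that fasting raises in liver and a list that feeding raises. Both lists had medians above 0 in CRY1 KO, at 0.48 for the 33 fasting genes and 0.29 for the 28 feeding genes, against -0.02 over all tested genes. Of the fasting genes 31 had positive differences and 1 was called higher. Of the feeding genes 21 had positive differences and 4 were called higher. Over all tested genes 47.3% had positive differences and 1.06% were called higher. The feeding median moved to 0.63 without WT 1, above the 0.42 of the fasting genes in that fit, and to 0.16 without WT 3, so its place below the fasting median rested on WT 1. By edgeR with all libraries 0 of either list were called lower, against 0.644% of all tested genes. At an unadjusted p under 0.05, 0 fasting and 3 feeding genes were lower, against 1360 of all 13816 tested genes. DESeq2 called 9 fasting genes, each higher, and 8 feeding genes, 6 higher and 2 lower, against 10.8% of all genes it judged. The CRY1 KO libraries were therefore not set apart in a fasted or a fed direction alone, and the difference between the lists was not tested. Groups did not overlap in 14 fasting genes and 6 feeding genes with CRY1 KO higher, and in 0 and 1 with CRY1 KO lower, where the shares over all tested genes were 14.6% and 12.7%.

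Cpt1a was the called fasting gene, and it encodes the enzyme that admits long-chain fatty acids to mitochondria. It stood at 333, 337 and 413 CPM in CRY1 KO, against 219.9, 196 and 246 CPM in WT (log2 difference 0.71, SE 0.12, edgeR adjusted p = 0.0365). The gluconeogenic gene Pck1, named after its values were seen, stood at 2789, 3125 and 3418 CPM in CRY1 KO, against 2633, 1024 and 1006 CPM in WT. WT 1 again lay near CRY1 KO, and the log2 difference was 1.001 (SE 0.41, edgeR adjusted p = 0.246). G6pc, which encodes the glucose-6-phosphatase of glucose output and was also named after its values were seen, stood at 389, 846 and 478 CPM in CRY1 KO, against 694, 261 and 270.04 CPM in WT, and the groups overlapped (log2 difference 0.48, SE 0.52, edgeR adjusted p = 0.646). The hormone gene Fgf21 stood at 0.76, 0.92 and 1.29 CPM in CRY1 KO and 0.50, 0.13 and 0.38 CPM in WT (log2 difference 1.56, SE 0.50, edgeR adjusted p = 0.135). Asl of the urea cycle (0.58), the deacetylase gene Sirt1 (0.40) and the peroxisomal gene Ehhadh (0.42) had positive log2 differences with groups that did not overlap, and did not pass.

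Among feeding genes, those called were Scd1, Elovl5 and Me1 of fatty acid synthesis and Pklr, the liver pyruvate kinase gene that responds to sugar. Pklr stood at 163, 176 and 219 CPM in CRY1 KO, against 119.7, 106 and 107 CPM in WT (log2 difference 0.74, SE 0.12, edgeR adjusted p = 0.0343). Me1, the malic enzyme gene that supplies NADPH, stood at 189, 161 and 191 CPM in CRY1 KO, against 131, 95.4 and 114 CPM in WT (log2 difference 0.67, SE 0.13, edgeR adjusted p = 0.047). The desaturase gene Fads2 followed at 0.64 (SE 0.14, edgeR adjusted p = 0.0545). Srebf1, which encodes the insulin-induced activator of lipid synthesis and was named after its values were seen, stood at 92.5, 98.2 and 118 CPM in CRY1 KO, against 97.0, 248 and 290.1 CPM in WT. WT 1 was inside the CRY1 KO range, and the log2 difference of Srebf1 was -1.04 (SE 0.41, edgeR adjusted p = 0.24).

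**Figure D4:**
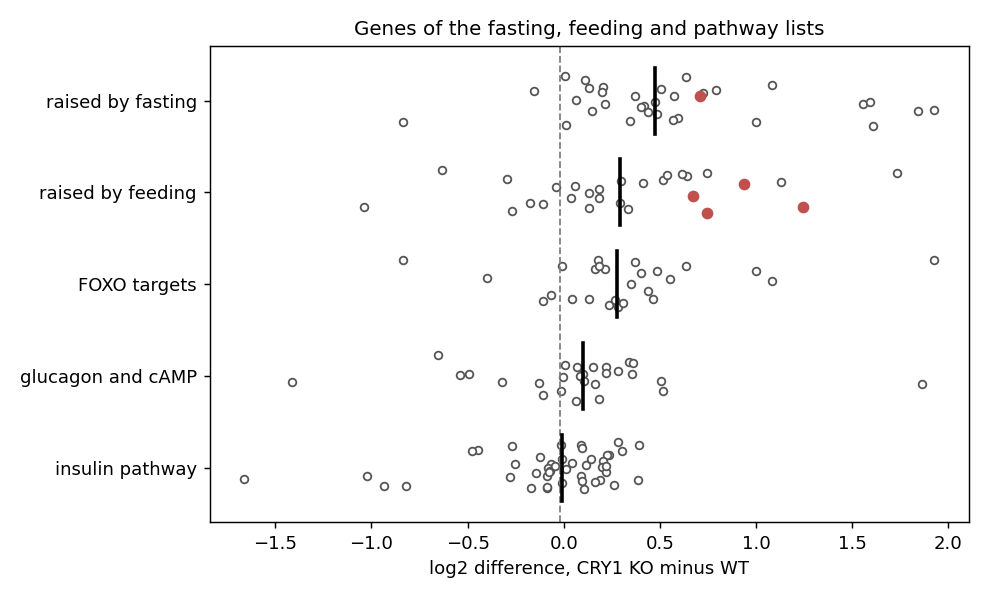
Log2 difference, CRY1 KO minus WT, of every tested gene of 5 lists, with the list's median as a black bar, the median of all tested genes as a dashed line, and genes at an edgeR adjusted p under 0.05 filled. The fasting, feeding and FOXO target lists have medians of 0.48, 0.29 and 0.27, and the insulin pathway list one of -0.01. Without WT 1 the fasting and feeding medians were 0.42 and 0.63.

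Of 26 tested genes reported as FOXO targets, 10 are also on the fasting list. By edgeR 0 of the 26 passed over all genes, against 1.70% of all tested genes. At an unadjusted p under 0.05, 9 were higher and 0 lower, against 1500 higher and 1360 lower of all 13816 tested genes. DESeq2 called 4, against 10.8% of all genes it judged. The median was 0.27, and 21 of 26 had positive differences, against 47.3% of all tested genes. Mttp, which loads lipid onto apolipoprotein B and is a known FOXO1 target, stood at 301, 307 and 279.8 CPM in CRY1 KO, against 251, 218 and 227 CPM in WT (log2 difference 0.35, SE 0.09, edgeR adjusted p = 0.0895). Pdk4, which turns glucose oxidation down in fasting, stood at 10.1, 7.14 and 5.41 CPM in CRY1 KO, against 4.36, 1.80 and 4.53 CPM in WT (log2 difference 1.08, SE 0.38, edgeR adjusted p = 0.182). Sod2, the mitochondrial superoxide dismutase gene, differed by 0.24 on the log2 scale (SE 0.08, edgeR adjusted p = 0.165).

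The count of calls in these lists depended on WT 1. Without it 7 fasting genes were called, each higher, among them Pck1, Angptl4, Klf15 and Lpin1, and 11 feeding genes, of which Srebf1 was lower and 10 were higher. FOXO targets had 4 calls without WT 1, Pck1, Klf15, Atg14 and Map1lc3b, each higher, and the cAMP list had 2, Sik3 higher and Crtc3 lower. Genes outside the naming rule were chosen here after their values were seen. In that fit 2.57% of all tested genes were called higher and 1.47% lower. Without WT 3 the count was 5 for fasting genes, 5 for feeding genes and 0 for FOXO targets, against 6.04% of all tested genes. Without WT 2 it was 0 in each of the 3 lists, in a fit that called 0.121% of all tested genes. Without CRY1 KO 1, 2 or 3 it was 0 for fasting genes and FOXO targets and between 0 and 1 for feeding genes. Those fits called 0.285%, 0.143% and 0.214% of all tested genes in that order, so few calls were to be had in any list.

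Glucocorticoids and the time of day also move genes of fasting and insulin action, so both were read in the same libraries. On 18 glucocorticoid receptor targets the median log2 deviation from the 6-library mean was 0.03, 0.13 and 0.33 in CRY1 KO, and 0.46, -0.39 and -0.70 in WT. WT 1 was the highest of all libraries there, as it was for Igfbp1, for Hmgcs1 and for the median of red cell markers. A link between these was not tested. Tsc22d3, a glucocorticoid-induced gene named after its values were seen, stood at 155, 174 and 193 CPM in CRY1 KO, against 157, 26.4 and 27.8 CPM in WT. By edgeR 0 of the 18 passed, against 1.70% of all tested genes, and Zbtb16 came nearest (log2 difference 3.29, SE 0.52, edgeR adjusted p = 0.0524). At an unadjusted p under 0.05, 5 were higher and 1 lower, where 20.7% of all tested genes had such a p. DESeq2 called 5, against 10.8% of all genes it judged. EdgeR without WT 1 called 6, against 4.04% of all tested genes in that fit. Of 14 clock genes driven through E-boxes or D-boxes 7 were called higher, against 1.06% of all tested genes. Their median deviation was 0.56, 1.002 and 1.14 in CRY1 KO, and -0.85, -0.996 and -0.67 in WT. By these medians WT 1 lay with its group on clock genes and above CRY1 KO on glucocorticoid targets. Single targets differed from the median. For Zbtb16, Fkbp5, Errfi1 and Per1, chosen by small p, WT 1 lay below every CRY1 KO library. Of the 18 targets 12 had positive and 6 negative log2 differences, the lowest being Lcn2 at -3.16 and Mt2 at -2.35. On 5 clock genes repressed through ROR elements the median log2 difference was -1.28, with Arntl at -1.73 (SE 0.42, edgeR adjusted p = 0.0962). At an unadjusted p under 0.05, 4 were lower, against 1360 of all 13816 tested genes. EdgeR called 0 of the 5, against 1.70% of all tested genes. With no sampling time or feeding state given, these and the genotype cannot be told apart.

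**Figure D5:**
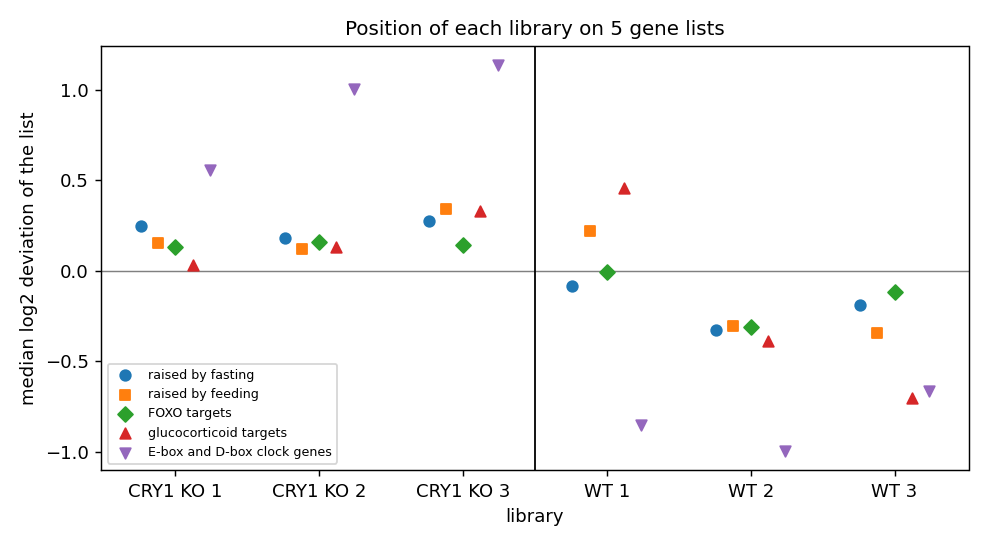
Median log2 deviation of 5 gene lists in each library from the mean of the 6 libraries. WT 1 is at 0.22 on feeding genes, among the CRY1 KO libraries, and at 0.46 on glucocorticoid targets, above them, but at -0.08 on fasting genes and -0.85 on clock genes, below all CRY1 KO libraries.

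Markers of Kupffer cells, the liver's macrophages, had negative differences in 11 of 11, with 8 that did not overlap between the groups, against 12.7% of all tested genes lower and not overlapping. EdgeR called 0 of them, against 1.70% of all tested genes. At an unadjusted p under 0.05, 8 were lower, against 1360 of all 13816 tested genes. DESeq2 called 6 lower, where it called 10.8% of all genes it judged in either direction. EdgeR without WT 3 called 8 lower, against 367 of all 13976 genes tested in that fit. The Kupffer cell markers had a median log2 difference of -0.86, and of -0.46 without WT 1. Their summed level was 234 to 237 CPM in CRY1 KO and 255 to 650 CPM in WT, highest in WT 1, and 0 of the 11 were at 0 in every library. Their part in the values of the 10 genes was not tested. In bulk liver, fewer cells of a type and less RNA per cell cannot be told apart. Median log2 differences of the other marker lists were -0.13 for hepatocytes, 0.12 for endothelial cells, -0.12 for stellate cells, 0.01 for bile duct cells, -0.43 for T and NK cells, -0.93 for B and plasma cells, -1.45 for neutrophils and -1.40 for red cells. The red cell median rested on WT 1, which had 2977 CPM of these markers, against 654 and 1024 CPM in WT 3 and WT 2 and 581 to 735 CPM in CRY1 KO, and it was -0.33 without WT 1. The T and NK cell median was -0.95 without CRY1 KO 3. The neutrophil median, from 4 tested genes, was -1.02 without WT 1. Summed levels of neutrophil markers were low, at 1.57 to 2.04 CPM in CRY1 KO and 2.90 to 6.98 CPM in WT. B and plasma cell markers summed to 3.33 to 4.53 CPM in CRY1 KO and 8.50 to 13.7 CPM in WT. T and NK cell markers summed to 2.08 to 3.38 CPM in CRY1 KO and 3.60 to 4.55 CPM in WT. By edgeR 1 gene of the marker lists was called, a B and plasma cell marker that was lower, where 0.644% of all tested genes were called lower.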

How the data were processed

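Polyadenylated RNA from 6 liver samples was measured, 3 titled CRY1 KO and 3 WT, with groups and replicate numbers taken from the titles. The authors deposited whole numbers per gene and sample, taken here as estimated counts because more genes in each library had the value 3 than 1, 2 or 4. The submitters' processing notes name build GRCm39 and 4 tools: limma 3.42.2, StringTie 2.1.7, HISAT2 2.2.1 and, for trimming, Trim Galore 0.6.7. Their settings, the annotation and whether strand was used are not given there. No gene summed to less than 11 over the libraries.

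From these counts, edgeR 4.0.16 kept 13816 genes (filterByExpr, minimum count 10, minimum total 15), removed 1276, scaled by TMM, and tested CRY1 KO against WT by its robust quasi-likelihood test, with p-values adjusted by Benjamini-Hochberg across the tested genes. CPM refer to TMM-scaled library sizes, and log2 deviations use a prior count of 2. SEs were derived from the F statistic and intervals are at 95%. Alternatives were DESeq2 1.42.0, RLE or no scaling, no filter, the replicate number as a block, and each library left out. The fit was tested on simulated data.

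Members and lists were chosen with earlier results of these data known. The genes named are all members, the called genes of each list with up to 4 others of smallest p, and the 3 nearest to a called member, though not every one is printed, and 1 is not reported here. Lists share genes. No protein sequences were used here.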

Additional observations from a re-analysis of the deposited data

How the results depend on the processing

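Of 110 repeats of the 10 genes' results (11 alternatives each), 95 kept direction and side of the threshold, 7 gained a call, 5 lost that of Foxo1 and 3 turned the sign of Igfbp1 (-0.13 without CRY1 KO 3, -0.34 without WT 2 and -0.35 without WT 3, within a range of -0.35 to 1.43 over the libraries left out). The 10 genes had 1 call by edgeR, 4 by DESeq2 and between 0 and 4 over the libraries left out. Over all genes the calls were 235 by edgeR, 1284 by DESeq2, 113 without scaling and between 17 and 844 over the libraries left out. Calls by DESeq2 numbered 4 for the insulin pathway, 3 for cAMP, 9 for fasting, 8 for feeding, 4 for FOXO targets and 20 for glucocorticoid and clock genes together, of which edgeR called 7. Without scaling fasting genes had 0 calls and feeding genes 1. Over the libraries left out the counts ran from 0 to 3 for the insulin pathway, 0 to 2 for cAMP, 0 to 7 for fasting, 0 to 11 for feeding, 0 to 4 for FOXO targets and 2 to 15 for glucocorticoid and clock genes. RLE scaling and no filter left each of these counts within 1.5 times. The causes were not tested. Same-numbered libraries of the groups did not deviate together (correlations -0.07, -0.01 and 0.07), so the numbers do not pair them. With the replicate block all genes had 94 calls and the 10 genes 0, where Foxo1 had an adjusted p of 0.075. Low values, such as those of Fgf21, carry little information.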
